A study of Mus musculus with 12 samples.

Results

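Enzymes that detoxify reactive and foreign molecules were followed by their messenger RNA in mouse ear skin. The members were the genes of the deposited table whose symbol begins with Gst plus a letter and a digit, with Akr1 (except Akr1a1), with Cyp2 or with Ugt1a, together with Nqo1, Hmox1, Txnrd1, Gclc, Gclm and Srxn1. This gave 136 of 56691 genes: 24 glutathione S-transferases (GSTs), 15 aldo-keto reductases of family 1 (AKR1), 73 cytochromes P450 of family 2 (CYP2), 9 P450 genes of families CYP20, CYP21, CYP24, CYP26 and CYP27 whose symbols also begin with Cyp2, 9 UDP-glucuronosyltransferases (UGT1A) and the 6 named redox enzymes. The P450 genes outside CYP2 act mainly on vitamin D, retinoic acid and sterols, and each count of members is also given without them.

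RNA-seq was done on ears of wild-type mice in 12 libraries. The 4 Blank libraries came from untreated ears. The 4 Model libraries came from ears given MC903, a vitamin D analogue (calcipotriol) used to induce a dermatitis like atopic dermatitis. The 4 IsoL libraries came from the group given isoliensinine, a bisbenzylisoquinoline alkaloid of lotus seed. The strain, age, doses, route and days are not given in the sources used here, nor whether MC903 was also put on the IsoL ears. The labels do not tie a library to an animal, so p-values reflect only library-to-library spread, which may be technical. In bulk tissue, fewer cells of a type and less RNA per cell cannot be told apart.

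Glutathione, a cysteine-containing tripeptide, is made by glutamate-cysteine ligase (a catalytic subunit, Gclc, and a modifier subunit, Gclm) followed by glutathione synthetase. GSTs join it to electrophiles, P450 enzymes oxidise lipophilic substrates, AKR1 enzymes reduce carbonyl groups of aldehydes and steroids, and UGT1A enzymes attach glucuronic acid. Many of these genes carry antioxidant response elements bound by Nrf2 (gene Nfe2l2), which Keap1 holds in check, and others respond to the aryl hydrocarbon receptor Ahr through xenobiotic response elements. Skin expresses several of them in keratinocytes and sebaceous glands, where some P450 enzymes act on fatty acids and retinoids and not on drugs.

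Total counts ran from 13884927 to 18771831 per library, and testing covered the 15403 genes that reached 1 FPKM in no fewer than 4 libraries. Of the members, 55 passed that filter: 19 GSTs, 8 AKR1, 13 CYP2, 5 other P450, 4 UGT1A and the 6 redox enzymes. Another 42 had counts below the filter and 39, among them 37 CYP2 genes, had no count in any library. Levels are scaled FPKM, computed as counts per kilobase of exon, scaled to the depth of the tested genes with TMM factors, and are given in the order of replicates 1 to 4. Log2 fold changes are given ± SE from edgeR's quasi-likelihood test. The SE was derived as the absolute log2 change divided by the square root of the test's F statistic. P-values were adjusted by the Benjamini-Hochberg method over all tested genes, with a call at an adjusted p under 0.05. The libraries differed in spread, with a common biological coefficient of variation of 3.57% in Blank, 4.70% in Model and 9.20% in IsoL.

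MC903 ears had higher levels of most redox enzymes and of a few GSTs and AKR1 enzymes, and lower levels of all 13 tested CYP2 enzymes and of the mu-class GSTs. In Model against Blank, 19 of the 55 tested members rose and 32 fell, where 35.3% and 34.9% of all tested genes did and 70.1% were called in either direction. The groups did not overlap for 49 members, against 67.4% of all genes, and 9 members rose and 18 fell at least 2-fold, against 14.0% and 7.17% of all genes. The median log2 change of members was -0.64, and that of all tested genes was -0.01. Without the P450 genes outside CYP2, 15 of 50 rose and 31 fell. In IsoL against Model, 23 of 55 rose and 5 fell, against 24.1% and 25.1% of all genes and 49.3% in either direction, with medians of 0.19 for the members and 0.01 for all genes. At least 2-fold rises numbered 11, against 2.34% of all genes, and the largest fall was 0.69 on the log2 scale (Akr1c13), so that no member fell 2-fold, against 5.76%. The groups did not overlap for 24, against 42.7%. Without the P450 genes outside CYP2, 20 rose and 4 fell. In IsoL against Blank, 20 rose and 27 fell, against 36.5% and 34.0% of all genes and 70.5% in either direction. Changes of at least 2-fold numbered 11 up and 13 down, against 11.6% and 6.11%, groups did not overlap for 45, against 63.7%, and 16 rose and 27 fell without those P450 genes. The split in IsoL against Model depended on scaling: 82.1% of the called members were higher with TMM and 86.2% with quantile scaling, but 69.2% with library totals alone and 69.2% with TPM. Over all called genes that share was 49.0%, 57.9%, 39.3% and 33.4% in the same order. In IsoL against Blank that share was 42.6% with TMM, 32.6% with library totals, 37.5% with quantile scaling and 26.5% with TPM, against 51.8%, 35.9%, 41.98% and 27.4% of all called genes. Of the tested members, 6 reached an FPKM of 1 in no library of some group (Akr1d1 and Cyp24a1 in Blank, Gsta3 and Gstm7 in Model, Cyp2w1 and Gstm2-ps1 in Model and IsoL), so their passing the filter rested on the other libraries.

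**Figure D1:**
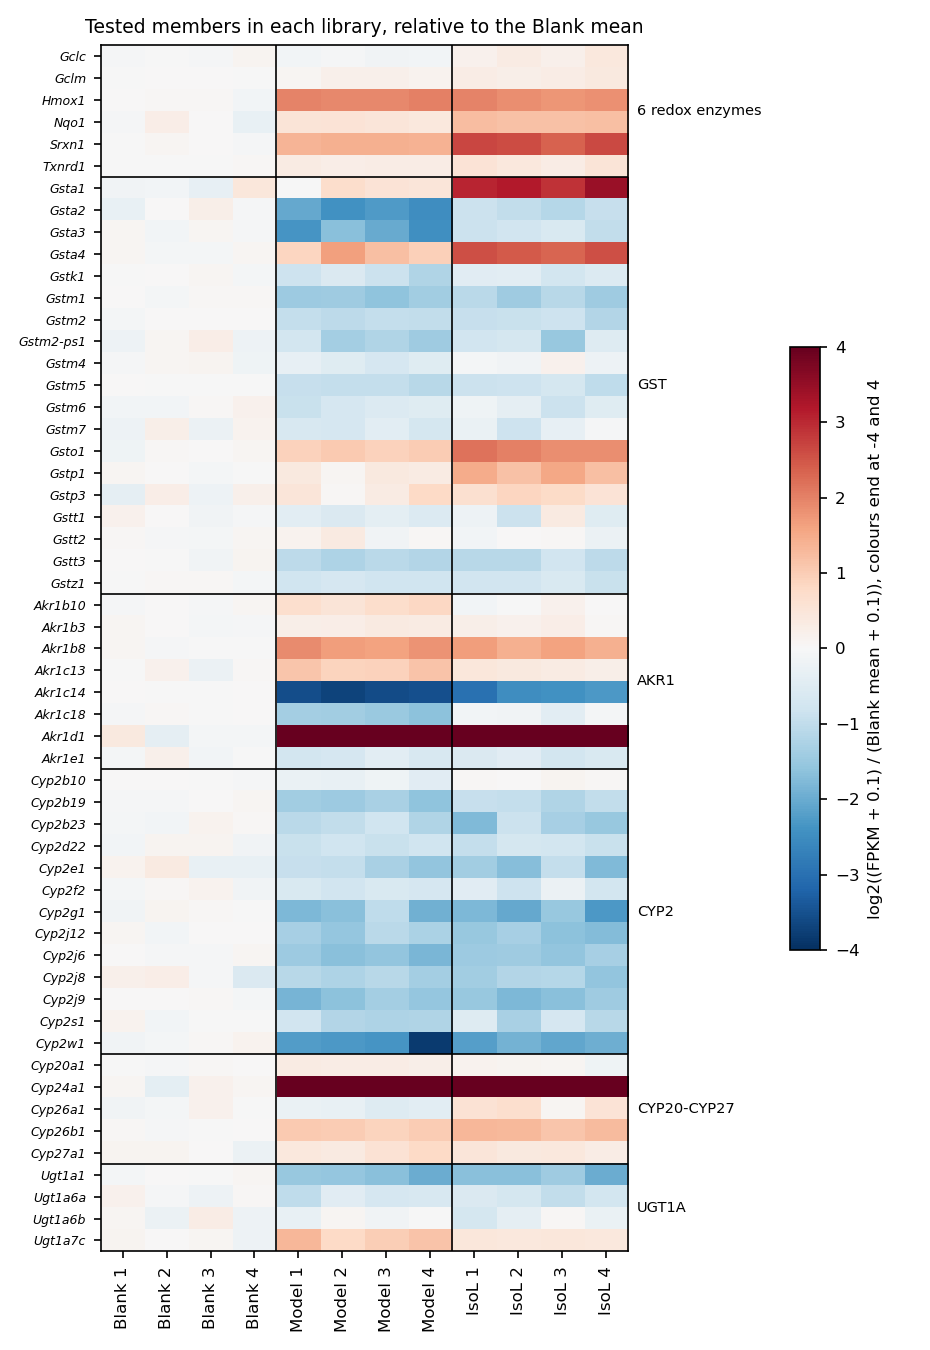
Each row is a tested member and each column a library, with colour for log2((scaled FPKM + 0.1) / (Blank mean + 0.1)) and colours ending at -4 and 4. The CYP2 rows are blue in the Model libraries, palest for Cyp2b10 (-0.30), and Srxn1, Gsta4 and Gsto1 are darker red in the IsoL than in the Model libraries.

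Among the 6 redox enzymes, 5 rose in Model and Gclc did not pass the test. In IsoL against Model 5 rose and Hmox1 did not pass it, and in IsoL against Blank all 6 rose. Of all tested genes, 35.3%, 24.1% and 36.5% rose in these comparisons, in the same order. In IsoL against Blank, Gclc was not called with library totals, FPKM or TPM, and Gclm was not called with TPM. Srxn1, sulfiredoxin, which repairs over-oxidised peroxiredoxins (ENSMUSG00000032802, chromosome 2, 151947436 to 151953296, genome build not given), had a scaled FPKM of 9.62, 10.3, 9.995 and 9.41 in Blank ears, 25.2, 26.5, 26.5 and 25.9 in Model ears, and 63.5, 60.4, 51.1 and 62.0 in IsoL ears. The 3 groups did not overlap, in the order Blank, Model, IsoL. The log2 change was 1.41 ± 0.06 in Model against Blank (adjusted p = 1.05e-14) and 1.19 ± 0.06 in IsoL against Model (adjusted p = 1.57e-13). Nqo1, the quinone reductase, had 7.71, 9.51, 8.13 and 6.47 in Blank ears, 11.5, 11.6, 11.2 and 10.7 in Model ears and 18.7, 17.97, 18.1 and 18.6 in IsoL ears. Its levels were in the same order without overlap, with changes of 0.50 ± 0.09 (adjusted p = 5.23e-05) and 0.70 ± 0.09 (adjusted p = 3.68e-07).

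Hmox1, the inducible heme oxygenase that opens heme to biliverdin, iron and carbon monoxide, followed another order. Its level was 33.3, 34.0, 33.7 and 30.5 in Blank ears, 130.5, 125.2, 124.04 and 132.8 in Model ears, and 131.0, 119.2, 111.3 and 115.9 in IsoL ears. Model and IsoL overlapped, and both lay above every Blank library. It rose by 1.96 ± 0.06 in Model (adjusted p = 1.27e-18), and its difference between IsoL and Model was -0.10 ± 0.05 (adjusted p = 0.107). That difference was called lower without IsoL replicate 1 (adjusted p = 0.0117) and with library totals, TPM or FPKM values.

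Gclc, Gclm and Txnrd1 changed less in Model against Blank than Srxn1, Nqo1 and Hmox1 did. Gclc was at 11.96, 12.03, 11.71 and 13.2 in Blank ears, 11.4, 11.9, 11.1 and 11.2 in Model ears and 13.8, 15.5, 14.1 and 16.3 in IsoL ears, so that every IsoL library lay above the others. It changed by -0.10 ± 0.06 in Model (adjusted p = 0.159), was called lower there with library totals, quantile scaling, TPM or FPKM (-0.22 to -0.32), and rose by 0.38 ± 0.06 in IsoL against Model (adjusted p = 1.71e-05). Gclm rose by 0.16 ± 0.06 in Model and by 0.16 ± 0.05 in IsoL against Model, and Txnrd1, thioredoxin reductase, by 0.29 ± 0.05 and 0.16 ± 0.05. The Model change of Gclm was not called with library totals, quantile scaling or FPKM and turned to -0.07 with TPM, and that of Txnrd1 was not called with TPM. In IsoL against Model, Gclm was not called without Model replicate 1 (adjusted p = 0.0781) or IsoL replicate 4 (adjusted p = 0.0719), nor with library totals, TPM or FPKM, and Txnrd1 was not called with library totals or TPM. Changes of this size lie near the shift that scaling gives to all genes: in Model against Blank their median was -0.01 with TMM, -0.15 with library totals, -0.19 with quantile scaling and -0.22 with TPM.

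The promoters of Gclm, Txnrd1 and Srxn1 are shown because, of the 4 redox enzymes with a promoter in the table (these and Nqo1), they held the antioxidant response element core TGACNNNGC in the 300 bases from 250 before to 50 after the RefSeq start (GRCm38.p6). The match is in capitals, and in each it is read on the opposite strand, with its leftmost base at -134 in Gclm, -92 in Txnrd1 and 28 in Srxn1 relative to the start site at 0. Of the 3 start sites listed for Txnrd1, the 1 with a match is shown.
Gclm, chr3:122245307-122245606, plus strand: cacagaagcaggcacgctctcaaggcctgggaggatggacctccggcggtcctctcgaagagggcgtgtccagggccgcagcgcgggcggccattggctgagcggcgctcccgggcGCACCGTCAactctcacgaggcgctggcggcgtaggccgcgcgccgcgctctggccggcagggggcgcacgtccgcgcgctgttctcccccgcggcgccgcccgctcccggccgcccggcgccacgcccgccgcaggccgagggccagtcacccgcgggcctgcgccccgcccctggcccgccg
Txnrd1, chr10:82858956-82859255, plus strand: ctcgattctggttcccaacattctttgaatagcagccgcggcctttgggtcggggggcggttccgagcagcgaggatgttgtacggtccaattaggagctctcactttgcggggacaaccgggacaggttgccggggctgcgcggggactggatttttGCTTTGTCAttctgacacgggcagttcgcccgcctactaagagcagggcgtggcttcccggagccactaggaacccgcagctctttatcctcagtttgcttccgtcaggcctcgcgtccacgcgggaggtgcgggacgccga
Srxn1, chr2:152105274-152105573, plus strand: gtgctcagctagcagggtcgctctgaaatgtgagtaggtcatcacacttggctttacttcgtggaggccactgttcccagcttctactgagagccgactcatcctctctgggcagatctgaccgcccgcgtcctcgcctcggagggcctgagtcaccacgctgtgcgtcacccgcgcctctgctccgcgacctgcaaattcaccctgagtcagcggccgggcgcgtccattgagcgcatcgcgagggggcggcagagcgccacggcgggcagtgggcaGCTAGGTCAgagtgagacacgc
Promoters were found for 45 of the 55 tested members. The core, read on either strand, stood in those of 7 (15.6%), which also included Gsta3, Gstm5, Gstm7 and Cyp2j6, and in those of 13.99% of all 27025 genes of the table. The 7 comprise genes that rose and genes that fell in Model: Gsta3, which held the motif at -121, and Cyp2j6, which held it at 15, were both lower. The xenobiotic response element core GCGTG, on either strand, stood in the promoters of 16 of the 45 members (35.6%) and of 35.2% of all genes. Matches of the motifs may overlap, since both hold GC, and a match in such a window is a description of sequence only.

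**Figure D2:**
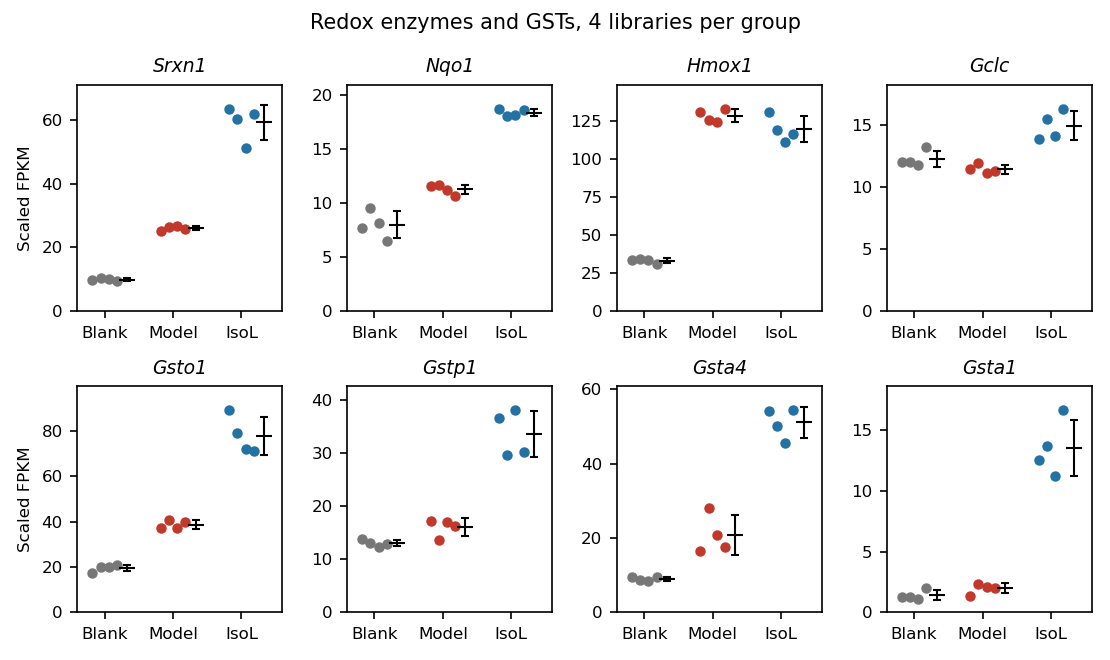
Points are the scaled FPKM of single libraries, 4 per group, on linear axes from 0, and the black bar beside each group is the mean ± SD. Srxn1, Nqo1, Gsto1 and Gsta4 are lowest in Blank and highest in IsoL with no overlap between groups, Hmox1 in IsoL overlaps Model, and Gsta1 is high in the IsoL libraries, at 11.3 to 16.7.

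Of the 19 tested GSTs, 13 fell and 4 rose in Model against Blank (median -0.68). Of all tested genes, 34.9% fell and 35.3% rose there. All 7 mu-class rows fell, by 0.50 to 1.47 on the log2 scale, as did the zeta-class Gstz1, an isomerase of tyrosine degradation (-0.77 ± 0.06), and the kappa-class Gstk1 of mitochondria and peroxisomes (-0.85 ± 0.11). The fall of Gstm7 was not called without Blank replicate 2 (adjusted p = 0.0556). Gstk1 was 0.31 ± 0.11 higher in IsoL than in Model, a call lost without Model replicate 3 (0.0586), Model replicate 4 (0.118), IsoL replicate 1 (0.0661) or IsoL replicate 2 (0.0796). That call was also lost with library totals, TPM or FPKM. Gstm1, the most abundant GST in Blank, was at 57.3, 53.7, 59.2 and 58.8 there, at 20.9, 21.3, 18.9 and 21.7 in Model and at 27.3, 21.2, 26.5 and 21.4 in IsoL. Blank lay apart from both other groups, which overlapped. Gstm1 fell by 1.47 ± 0.08 in Model (adjusted p = 7.45e-14), and Gstm5 by 0.98 ± 0.07 and Gstm2 by 0.99 ± 0.07. In IsoL against Model the mu class held 2 calls of 7, where 49.3% of all tested genes were called. Both calls were higher: Gstm4 (0.44 ± 0.14) and Gstm1 (0.22 ± 0.08). The call of Gstm1 was lost without Model replicate 3 (adjusted p = 0.0888), IsoL replicate 1 (0.107) or IsoL replicate 3 (0.0836), and with library totals, TPM or FPKM. Gstm5 was called higher without IsoL replicate 4 (0.0205) and with quantile scaling. The 6 genes Gstm1, Gstm2, Gstm4, Gstm5, Gstm6 and Gstm7 lie together on chromosome 3 (107803137 to 107952210 in the deposited table). Gstm2-ps1, a pseudogene on chromosome 5, shared 46.9% of its 50-base words with other genes, chiefly Gstm1, so its fall cannot be told apart from that of Gstm1.

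All 4 tested alpha-class members rose in IsoL against Model, where 24.1% of all tested genes did. Gsta4, which conjugates the lipid peroxidation product 4-hydroxynonenal, had 9.50, 8.62, 8.48 and 9.45 in Blank ears, 16.4, 28.2, 20.9 and 17.5 in Model ears and 54.3, 50.1, 45.6 and 54.3 in IsoL ears. No libraries of different groups overlapped, and Model replicate 2 was the highest of its group. It rose by 1.21 ± 0.13 in Model (adjusted p = 2.21e-08) and by a further 1.29 ± 0.11 in IsoL (adjusted p = 1.68e-09). Gsta2 took the opposite course in Model, from 15.1, 18.9, 22.1 and 18.1 in Blank to 4.39, 3.39, 3.74 and 3.24, and stood at 10.1, 9.41, 8.34 and 9.81 in IsoL. It fell by 2.33 ± 0.13 (adjusted p = 1.65e-13), was 1.36 ± 0.13 higher in IsoL than in Model (adjusted p = 1.67e-08), and stayed below Blank, by -0.97 ± 0.11. Gsta3, which in mouse conjugates aflatoxin epoxide, went the same way, with a fall of 2.25 ± 0.15 in Model and a rise of 1.42 ± 0.17 in IsoL against Model.

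Gsta1 had 1.27, 1.31, 1.11 and 2.005 in Blank ears, 1.39, 2.37, 2.13 and 2.03 in Model ears and 12.5, 13.7, 11.3 and 16.7 in IsoL ears. The Blank and Model libraries overlapped and every IsoL library was higher. Its rise of 2.76 ± 0.18 in IsoL against Model (adjusted p = 1.37e-11) was the largest among the 55 tested members in that comparison. In Model against Blank the change was 0.49 ± 0.24 (adjusted p = 0.0772), which was called higher without Blank replicate 4 (0.0197) or Model replicate 1 (0.0329). Of its 50-base words, 90.5% also occur in another gene, chiefly the predicted gene Gm3776, and 49.8% of those of Gsta2 do, chiefly in Gsta1. How the counting assigned such reads is not given, so the division of reads among Gsta1, Gsta2 and Gm3776 is uncertain. Gsta4, with no shared words, is free of this limit.

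Gsto1, the omega-class enzyme that also reduces dehydroascorbate, had 17.4, 20.2, 20.03 and 20.7 in Blank ears, 37.2, 40.9, 37.0 and 39.7 in Model ears and 89.2, 79.0, 72.0 and 71.3 in IsoL ears. The groups did not overlap, and each step was close to a doubling on the linear scale: 0.98 ± 0.07 in Model (adjusted p = 3.75e-11) and 1.01 ± 0.07 in IsoL against Model (adjusted p = 2.24e-11). Gstp1, the pi-class enzyme abundant in epithelia, was at 13.8, 13.1, 12.4 and 12.8 in Blank ears, 17.3, 13.7, 17.0 and 16.2 in Model ears and 36.6, 29.5, 38.0 and 30.2 in IsoL ears. Blank and Model overlapped and IsoL lay above both. Its rise was 0.30 ± 0.09 in Model (adjusted p = 0.00721), not called with library totals, quantile scaling, TPM or FPKM, and 1.07 ± 0.09 in IsoL against Model (adjusted p = 6.69e-10). Of its 50-base words 33.7% are shared with Gstp2, which lay below the filter with 54, 50 and 82 counts over the Blank, Model and IsoL libraries. Gstp3 rose by 0.45 ± 0.20 in Model, and the call was lost on leaving out each of 5 libraries in turn, with adjusted p from 0.0555 without Model replicate 3 to 0.219 without Model replicate 4, and 0.154, 0.117 and 0.0835 without Blank replicate 1, Blank replicate 3 and Model replicate 1. Gstp3 was also not called there with library totals, quantile scaling, TPM or FPKM. Of the theta class, Gstt3 fell by 1.17 ± 0.09 in Model and Gstt1 by 0.50 ± 0.19, the latter not called without Blank replicate 1 (0.0631) or Model replicate 2 (0.0534). The change of Gstt2 was 0.12 ± 0.12. In IsoL against Model the theta-class changes were 0.14 ± 0.10 for Gstt3, 0.25 ± 0.19 for Gstt1 and -0.19 ± 0.12 for Gstt2, with adjusted p from 0.225 to 0.289.

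**Figure D3:**
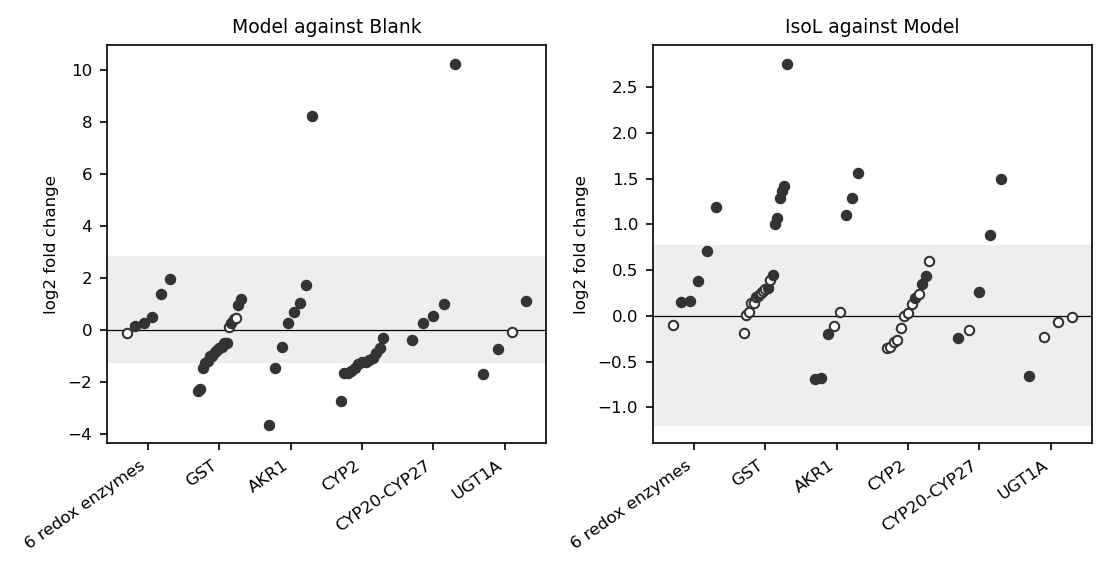
Log2 fold changes of the tested members by family, filled where the adjusted p is under 0.05 and open where it is not; the grey band spans the 5th to the 95th percentile of all tested genes. All 13 CYP2 points lie below 0 in Model against Blank, and the highest GST and AKR1 points in IsoL against Model, Gsta1 at 2.76 and Akr1d1 at 1.56, lie above the band. The vertical scales of the panels differ.

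The AKR1 enzymes held the largest rise and the largest fall among the tested members outside the P450 genes. Akr1d1, the steroid 5-beta-reductase known for bile acid synthesis in liver (ENSMUSG00000038641, chromosome 6, 37507108 to 37545750), had 14, 6, 8 and 8 counts in Blank ears, 1883, 3477, 2014 and 2352 in Model ears and 7586, 9490, 5863 and 8886 in IsoL ears. Its scaled FPKM was 0.267, 0.118, 0.163 and 0.161 in Blank ears, 48.1, 71.6, 47.2 and 54.5 in Model ears, and 151, 199, 128 and 177 in IsoL ears. The groups did not overlap. It rose by 8.26 ± 0.24 in Model (adjusted p = 1.58e-18) and by 1.56 ± 0.12 in IsoL against Model (adjusted p = 1.78e-10), and had the highest mean level per length of the AKR1 transcripts in both Model and IsoL. Its 50-base words were shared with no other gene. Akr1d1 reached 1 FPKM in no Blank library, so it passed the filter through the Model and IsoL libraries. The summed level of 4 hepatocyte markers (Alb, Apoa1, Ttr and Serpina1a) was 0.567 to 1.07 in Blank ears, 1.16 to 2.22 in Model ears and 0.689 to 0.996 in IsoL ears, and none of the 4 passed the filter.

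The Akr1c genes, which reduce or oxidise steroid hormones, lie side by side on chromosome 13 (4099011 to 4255595 for the 3 tested) and changed in different directions. Akr1c14, a 3-alpha-hydroxysteroid dehydrogenase, had 25.4, 24.5, 24.8 and 25.4 in Blank ears, 2.03, 1.84, 1.99 and 2.11 in Model ears and 3.06, 4.37, 4.57 and 5.06 in IsoL ears. It fell by 3.65 ± 0.10 in Model (adjusted p = 1.69e-18), the largest fall of any tested member, and was 1.10 ± 0.12 higher in IsoL than in Model (adjusted p = 8.06e-08) while remaining below every Blank library. Akr1c18, the 20-alpha-hydroxysteroid dehydrogenase that inactivates progesterone, had 66.8, 71.2, 68.5 and 69.1 in Blank ears, 26.7, 26.3, 24.6 and 22.0 in Model ears and 64.4, 62.2, 51.5 and 64.7 in IsoL ears. It fell by 1.47 ± 0.07 and was 1.29 ± 0.07 higher in IsoL than in Model. Between IsoL and Blank it differed by -0.18 ± 0.07 (adjusted p = 0.0179), a call lost without Blank replicate 2 (0.0526) or IsoL replicate 3 (0.0792). Akr1c13 went the other way, up by 1.05 ± 0.13 in Model and down by 0.69 ± 0.13 in IsoL against Model; 24.2% of its 50-base words are shared with Akr1c12.

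The 3 tested Akr1b genes rose in Model, where 35.3% of all tested genes did. Akr1b8, an aldehyde reductase induced by fibroblast growth factor, had 8.65, 7.92, 8.06 and 8.17 in Blank ears, 30.9, 26.3, 25.0 and 28.5 in Model ears and 26.5, 22.3, 25.0 and 22.3 in IsoL ears. Its rise in Model was 1.75 ± 0.08 (adjusted p = 1.26e-14). Model and IsoL overlapped, and the fall of 0.20 ± 0.07 in IsoL against Model (adjusted p = 0.0267) was not called without Model replicate 1 (0.123), Model replicate 4 (0.0795), IsoL replicate 2 (0.0806) or IsoL replicate 4 (0.0765), nor with quantile scaling. Akr1b10 rose by 0.70 ± 0.09 in Model and fell by 0.68 ± 0.09 in IsoL against Model, which left it 0.02 ± 0.09 from Blank (adjusted p = 0.891). Akr1b3, aldose reductase, rose by 0.29 ± 0.06 in Model, not called with TPM. Akr1e1 fell by 0.64 ± 0.10 in Model and changed by 0.04 ± 0.10 in IsoL against Model.

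**Figure D4:**
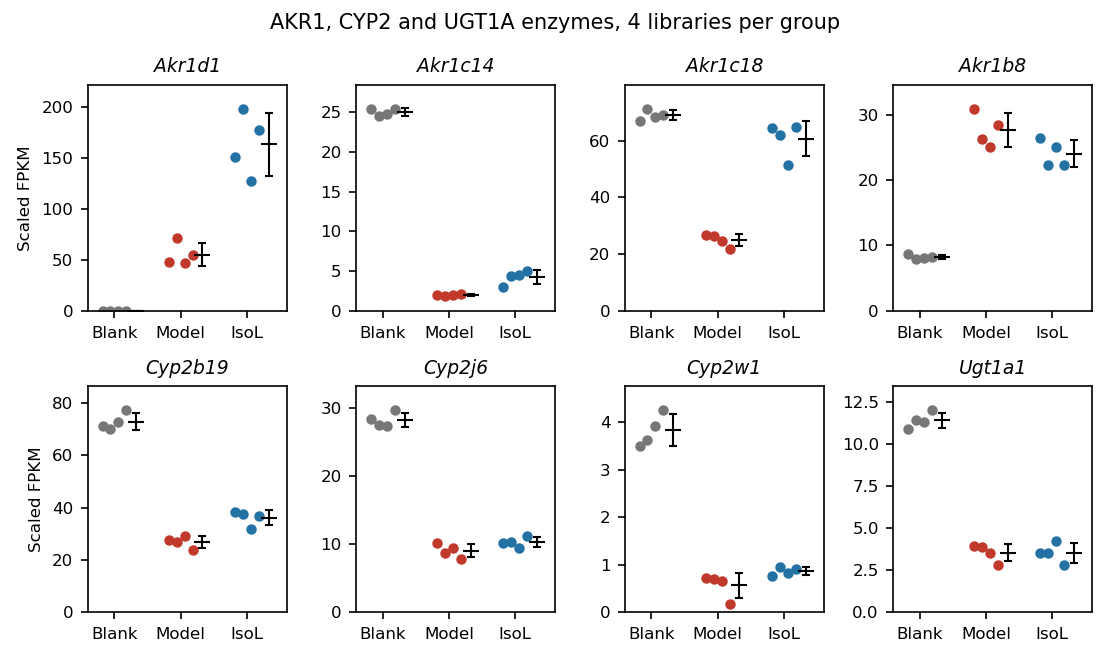
Points are the scaled FPKM of single libraries, 4 per group, on linear axes from 0, with the mean ± SD as a black bar beside each group. Akr1d1 lies at 0.267 or less in Blank and at 128 to 199 in IsoL, Akr1c18 in IsoL lies close to Blank, and Cyp2j6, Cyp2w1 and Ugt1a1 lie low in both Model and IsoL.

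All 13 tested CYP2 genes fell in Model, 10 of them at least 2-fold, against 34.9% and 7.17% of all tested genes. The CYP2 median log2 change was -1.24. Between IsoL and Model, 3 were higher in IsoL (Cyp2b10, Cyp2b19 and Cyp2j6) and the other 10 were not called, though Cyp2b23 was called lower without IsoL replicate 2 (adjusted p = 0.0199). Of all tested genes, 49.3% were called in IsoL against Model. In IsoL against Blank 12 of 13 CYP2 genes were lower, against 34.0% of all tested genes. Cyp2b19, an epidermal epoxygenase of arachidonic acid and the most abundant CYP2 transcript, had 71.3, 70.2, 72.9 and 77.2 in Blank ears, 27.5, 26.7, 29.4 and 24.0 in Model ears and 38.5, 37.8, 31.9 and 36.8 in IsoL ears. The groups did not overlap, with IsoL between the others, and the changes were -1.44 ± 0.06 in Model (adjusted p = 3.51e-15) and 0.43 ± 0.06 in IsoL against Model (adjusted p = 4.85e-06). Cyp2b10, which in liver is induced through the receptor CAR, fell by 0.30 ± 0.06 and rose by 0.35 ± 0.06 in IsoL against Model. Its difference between IsoL and Blank was 0.05 ± 0.06 with TMM and between -0.13 and -0.27, called lower, with library totals, FPKM or TPM.

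The 4 tested Cyp2j genes, in a cluster on chromosome 4 (95987555 to 96479815), fell by 1.23 to 1.64 in Model. Cyp2j6 had 28.3, 27.6, 27.3 and 29.7 in Blank ears, 10.2, 8.76, 9.44 and 7.84 in Model ears and 10.2, 10.4, 9.48 and 11.2 in IsoL ears, so that Model and IsoL overlapped. It fell by 1.64 ± 0.07 in Model (adjusted p = 1.35e-15). Its rise of 0.19 ± 0.07 in IsoL against Model was not called without Model replicate 2 (adjusted p = 0.0761), Model replicate 4 (0.116) or IsoL replicate 4 (0.0966), nor with library totals, TPM or FPKM. Cyp2j9, Cyp2j12 and Cyp2j8 changed by -0.00 ± 0.12, -0.26 ± 0.12 and -0.13 ± 0.19 in IsoL against Model. Cyp2j12 was called lower there without Model replicate 2 (0.0264) or IsoL replicate 2 (0.0277), and with library totals, TPM or FPKM.

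Cyp2w1 showed the largest fall of the CYP2 genes that passed the filter, 2.73 ± 0.24 (adjusted p = 9.70e-10), from 96, 97, 101 and 111 counts in Blank to 15, 18, 15 and 4 in Model, and it had 20, 24, 20 and 24 in IsoL. Cyp2w1 reached 1 FPKM in no Model or IsoL library, so it passed the filter through the Blank libraries. Its change in IsoL against Model was 0.59 ± 0.30 (adjusted p = 0.103), and the scaled FPKM of these groups did not overlap. With quantile scaling it was called higher there (0.99, adjusted p = 0.0289 by limma). Cyp2g1, an enzyme known from olfactory mucosa, went from 18.5, 22.3, 21.6 and 20.2 in Blank ears to 5.85, 6.47, 10.2 and 5.34 in Model ears and 5.83, 4.94, 7.13 and 4.14 in IsoL ears. It fell by 1.57 ± 0.15, and its further change of -0.34 ± 0.17 in IsoL (adjusted p = 0.0948) was called without Model replicate 4 (0.0394) or IsoL replicate 3 (0.0194). The others were Cyp2e1, the ethanol-inducible enzyme (-1.24 ± 0.22), Cyp2s1 (-1.16 ± 0.16), Cyp2b23 (-1.06 ± 0.17), Cyp2d22 (-0.87 ± 0.09) and Cyp2f2, which bioactivates naphthalene in lung (-0.67 ± 0.10). The summed level of 8 sebaceous gland markers ran from 1656 to 1739 in Blank ears, from 760 to 879 in Model ears and from 863 to 1046 in IsoL ears, with 4 of 8 lower and the other 4 not called in Model. All tested markers of skeletal muscle (5 of 5, median log2 change -0.89), adipocytes (5 of 5, -0.69) and cartilage (3 of 3, -0.94) were lower in Model. The marker calls stand beside 34.9% of all tested genes lower and 35.3% higher in Model. In IsoL against Model these shares were 25.1% and 24.1%. The sum of 7 keratinocyte markers was 7421 to 7965 in Blank ears, 5072 to 6120 in Model ears and 10839 to 12504 in IsoL ears, with 2 of 7 higher and 5 lower in Model and 7 of 7 higher in IsoL against Model. That of 6 neutrophil markers was 53.0 to 130, 4924 to 5383 and 543 to 759, with 6 of 6 higher in Model and 6 of 6 lower in IsoL against Model. For 6 monocyte and macrophage markers it was 151 to 161, 1202 to 1313 and 594 to 711, with the same calls. For 6 mast cell markers it was 83.4 to 92.8, 231 to 267 and 238 to 264. All 6 were higher in Model and 1 was higher in IsoL against Model. For 5 fibroblast markers it was 579 to 621, 795 to 866 and 643 to 723. Of these, 4 were higher in Model and 5 lower in IsoL against Model. None of these markers was at 0 in every library, and their part in the enzyme changes was not tested.

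Among the P450 genes outside CYP2, Cyp24a1, which degrades active vitamin D and is a direct target of its receptor, had 0.303 to 0.497 in Blank ears, 489 to 572 in Model ears and 1301 to 1587 in IsoL ears, with changes of 10.27 ± 0.11 in Model and 1.49 ± 0.07 in IsoL against Model. Cyp26b1, which degrades retinoic acid, had 28.5, 27.0, 27.5 and 28.0 in Blank ears, 57.2, 56.6, 51.6 and 56.7 in Model ears and 69.1, 68.9, 59.9 and 67.2 in IsoL ears. The groups did not overlap, with rises of 1.0001 ± 0.05 in Model (adjusted p = 8.25e-14) and 0.26 ± 0.05 in IsoL against Model (adjusted p = 2.08e-04). Its paralog Cyp26a1 fell by 0.39 ± 0.14 in Model (adjusted p = 0.0183), a call lost without Blank replicate 3 (0.0675) or Model replicate 3 (0.056), and rose by 0.89 ± 0.14 in IsoL against Model. Cyp27a1, sterol 27-hydroxylase, rose by 0.56 ± 0.10 in Model, and Cyp20a1 by 0.29 ± 0.07, the latter not called with library totals, quantile scaling or TPM.

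Of the UGT1A genes, Ugt1a1, the bilirubin-conjugating enzyme, had 10.9, 11.4, 11.3 and 11.99 in Blank ears, 3.95, 3.86, 3.54 and 2.83 in Model ears and 3.496, 3.54, 4.22 and 2.83 in IsoL ears. It fell by 1.68 ± 0.11 in Model (adjusted p = 3.30e-12), and Model and IsoL overlapped, with a difference of -0.01 ± 0.12. Ugt1a6a fell by 0.72 ± 0.14 in Model. Ugt1a7c rose by 1.124 ± 0.12 in Model (adjusted p = 4.31e-08) and fell by 0.66 ± 0.12 in IsoL against Model (adjusted p = 8.23e-05). The change of Ugt1a6b was -0.08 ± 0.20 in Model (adjusted p = 0.730). These genes have separate first exons and share the others: 52.1% to 79.8% of the 50-base words of the 4 tested are shared, so their FPKM values, taken over the whole exonic length, are uncertain.

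Below the filter, 24 of the 42 members with counts had fewer than 20 over the 12 libraries. With no filter on low values, 7 of the 42 were called in Model against Blank, 4 higher and 3 lower, where 37.7% of all genes in that fit were called. In IsoL against Model 2 of the 42 were called, against 23.8%. Both shares are over the 35185 genes of that fit, which include the 15403 above the filter. They are therefore not a like background for members below it. Akr1c19 had 199, 14 and 17 counts over the 4 Blank, Model and IsoL libraries, with a change of -3.56 ± 0.39 in Model (adjusted p = 1.07e-18), and Cyp2a5 had 99, 8 and 10 (-3.34 ± 0.53, adjusted p = 1.95e-09). Cyp2u1, a fatty acid hydroxylase, had 121, 250 and 120, higher in Model by 1.27 ± 0.22 and lower in IsoL against Model by 1.21 ± 0.22. Gsta5 had 34, 19 and 88 counts and was called higher in IsoL against Model (2.02 ± 0.44). The other calls in Model against Blank were Akr1c12 and, with 12 and 11 counts in Model and none in Blank, Gstt4 and Cyp2c52-ps higher, and Gsto2 lower. The vitamin D 25-hydroxylase Cyp2r1 (75, 53 and 85 counts over the 3 groups) and the 1-alpha-hydroxylase Cyp27b1 (43, 44 and 43 counts) had adjusted p of 0.307 or more in the 3 comparisons of that fit.

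Other genes of these pathways were described from lists chosen with earlier results of these data known. Their counts stand beside 35.3% of all tested genes higher and 34.9% lower in Model against Blank, and 24.1% higher and 25.1% lower in IsoL against Model. Of 9 regulators around Nrf2, 7 rose and 2 fell in Model (median 0.55), and 2 rose and 6 fell in IsoL against Model (median -0.22). Nfe2l2 itself had a mean of 24.0 ± 0.830 in Blank, 54.9 ± 0.807 in Model and 46.9 ± 1.93 in IsoL (SD, n = 4), a rise of 1.20 ± 0.05 in Model and a fall of 0.23 ± 0.04 in IsoL against Model by edgeR. Keap1 changed by 0.18 ± 0.08 and -0.20 ± 0.08. Of 33 tested genes of the glutathione and thioredoxin system outside the members, 18 rose and 9 fell in Model (median 0.25), and 10 rose and 12 fell in IsoL against Model (median -0.06). Slc7a11, the cystine importer that feeds glutathione synthesis, had 0.286 ± 0.0322, 11.4 ± 0.467 and 6.57 ± 0.775 in the 3 groups (SD, n = 4), up by 5.30 ± 0.09 in Model and down by 0.79 ± 0.07 in IsoL against Model. Gpx2, a glutathione peroxidase of epithelia, rose in both (2.63 ± 0.24 and 0.93 ± 0.17), as did the glutaredoxin Glrx (2.32 ± 0.06 and 0.76 ± 0.06).

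Of 7 genes of NADPH supply, 4 rose and 2 fell in both Model against Blank and IsoL against Model. G6pdx, the first enzyme of the pentose phosphate pathway, rose by 0.44 ± 0.05 and 0.70 ± 0.05, and the malic enzyme Me1 changed by -0.99 ± 0.06 and 0.68 ± 0.06. Of 7 genes of heme and iron handling, 5 rose and 2 fell in Model, and 5 fell in IsoL against Model with the other 2 not called. The ferritin chains Fth1 and Ftl1 rose by 1.90 ± 0.05 and 2.13 ± 0.06 in Model and fell by 1.14 ± 0.05 and 0.85 ± 0.06 in IsoL against Model. Of 9 tested xenobiotic receptors and targets, 4 rose and 5 fell in Model: Cyp1b1 rose by 1.61 ± 0.08, and Ahr and Cyp1a1 fell by 0.24 ± 0.06 and 0.46 ± 0.09. Of these 9, 2 rose and 4 fell in IsoL against Model. Of 24 tested other drug-metabolising enzymes and transporters, 10 rose and 11 fell in Model, and 7 rose and 5 fell in IsoL against Model. The corneal-type aldehyde dehydrogenase Aldh3a1 changed by -2.02 ± 0.10 and 0.82 ± 0.11, and the cholesterol sulfotransferase Sult2b1 by 0.84 ± 0.08 and 1.24 ± 0.07. Model against Blank and IsoL against Model share the Model libraries, so the paired values above are not independent.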

How the data were processed

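RNA was isolated with Trizol, captured on poly-T beads, copied from random primers and amplified in a PCR without molecular identifiers described, per the labels' protocols. The authors deposited 1 table with raw counts and FPKM values for every gene and library, per the file headers. The submitters' processing notes name fastp 0.22.0, HISAT2 2.1.0 and HTSeq 0.9.1, and the strandedness, counting mode and genome build are not given in the sources used here. Each deposited FPKM equals the count divided by exonic length and library total, within 0.005. Coordinates are those of the deposited table, and promoter sequences and their coordinates are from RefSeq (GRCm38.p6).

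The counts were tested with edgeR 4.0.16 in R 4.3.3 (TMM, quasi-likelihood test, 1 fit for the 3 groups, no covariate), after a filter of FPKM 1 or more in at least 4 of 12 libraries. The test was checked on simulated data, for Model against Blank only. Few genes were changed there and all groups had the same spread. That check therefore does not cover the many called genes or the unequal spread of these data. Alternatives used DESeq2 1.42.0 and limma 3.58.1, other scalings, filters and pseudocounts of 1 and 0.1, fitted each pair of groups alone, and left out each library. Sequence sharing was measured on GENCODE M21 transcripts, as the share of a gene's 50-base stretches that recur in another gene. Replicate libraries of a group differed by more than sampling noise (chi-square per degree of freedom 2.05 to 14.3). The text names the 6 redox enzymes, in each family the 2 most abundant members, and up to 4 called rises and 4 called falls of largest change per comparison. Other members named in the text were chosen after their values were seen. The members and lists were chosen with earlier results of these data known.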

Additional observations from a re-analysis of the deposited data

Results flagged for a closer look

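In each group of 4 libraries, the highest and the lowest library of every tested member was compared with the other 3, and a library was singled out where its gap to the nearest exceeded the 95% critical value of Dixon's test. This was done for 165 groups of libraries, and chance alone singles out about 1 in 20. It picked 6 values of scaled FPKM. Cyp26b1 was 51.6 in Model replicate 3, against 56.6 to 57.2 in the others. Cyp2s1 was 1.14 in Model replicate 1, against 0.796 to 0.833. Cyp2w1 was 0.177 in Model replicate 4, against 0.671 to 0.730. Gstm2 was 28.0 in Blank replicate 1, against 29.5 to 29.8. Gstt3 was 3.51 in IsoL replicate 3, against 2.70 to 2.81. Gstz1 was 9.88 in Model replicate 2, against 9.08 to 9.19.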

How the results depend on the processing

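Over 22 settings, 2805 of 2970 values of single members kept their direction and their side of the threshold. Counts of called members moved by more than 1.5 times in 3 cases: members lower in IsoL against Model numbered 8 with library totals and 8 with TPM, against 5, and members higher in IsoL against Blank numbered 13 with TPM, against 20. Leaving out 1 library gave 18 to 20 members higher and 31 to 32 lower in Model against Blank, 21 to 22 and 4 to 6 in IsoL against Model, and 19 to 20 and 25 to 27 in IsoL against Blank. All reversals came with a scaling other than TMM. In Model against Blank, Gclm was -0.07 with TPM. In IsoL against Blank, TPM gave -0.29 for Akr1b10, -0.14 for Akr1b3, -0.28 for Cyp20a1, -0.27 for Cyp2b10, -0.0448 for Gclc and -0.0125 for Gclm. Library totals gave -0.0104 for Akr1b3 and -0.14 for Cyp2b10, log2(FPKM + 1) gave -0.006, -0.13 and -0.13 for Akr1b3, Cyp20a1 and Cyp2b10, and log2(FPKM + 0.1) gave -0.0075, -0.15 and -0.14. Their cause was not tested. The count without the P450 genes outside CYP2 was chosen after seeing the data. Same-numbered libraries of different groups did not deviate together (correlations from -0.13 to 0.03 over 12 pairs). With the replicate number as a block, the counts of members higher and lower were 19 and 32 in Model against Blank, 23 and 6 in IsoL against Model and 20 and 27 in IsoL against Blank. Under the block Gstp3 was no longer called (adjusted p = 0.0628, edgeR) and Gsta1 was called higher (0.0484) in Model against Blank, and Cyp2g1 was called lower (0.0408) in IsoL against Model. With each pair of groups fitted alone, 19 members were higher and 5 lower in IsoL against Model. Gclm (adjusted p = 0.0582, edgeR), Gstm1 (0.0613), Gstk1 (0.0639) and Cyp2j6 (0.0757) were then not called there. Gstp3 (0.0507) was not called in Model against Blank, nor Akr1c13 (0.0509) in IsoL against Blank.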
